A study of Mus musculus with 10 samples.

Results

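*Dcstamp* and 8 genes known from osteoclasts were examined in microglia sorted from the hippocampi of 3xTg AD mice. The 9 genes were 9 of the 55453 in the count table. They were *Dcstamp*, *Ocstamp*, *Atp6v0d2*, *Tnfrsf11a*, *Itgb3*, *Oscar*, *Nfatc1*, *Acp5* and *Ctsk*, each matched by its symbol. *Dcstamp* was chosen by its difference between GA and PBS in these same libraries, where it was the top gene of the series, so its values for that comparison are a description with no test. The other 8 were added to it as genes known from osteoclast formation.

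All mice were female 3xTg AD mice over 15 months old, whose mutant human transgenes include APP with the Swedish mutation and MAPT P301L under the Thy1.2 promoter, a promoter used to drive transgenes in neurons. The microglia examined here are therefore host cells in a brain with plaques and tau pathology, and both groups carry the same transgenes. By the methods the animals were homozygous retired breeders, and non-transgenic microglia were not analysed here. The PBS group (5 libraries, 388_1 to 388_5) received PBS, and the GA group (5 libraries) received 0.1 mg of glatiramer acetate per injection, given weekly over about 8 weeks, with an additional injection in the first week according to the methods. Glatiramer acetate is a mixture of random peptides used as a treatment for multiple sclerosis. The GA libraries were 394_1, 394_2, 400_1, 400_2 and 400_3. What a prefix stands for is not given in the labels and no prefix holds both treatments, so prefix and treatment cannot be told apart. Cells were sorted as CD45int CD11b+. The labels do not say that the libraries of a group came from separate animals, so p-values measure only the spread between these libraries.

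Osteoclasts are bone-resorbing cells that form when precursors of the macrophage lineage fuse. RANK ligand binds RANK, encoded by *Tnfrsf11a*, and together with CSF1 and with adaptors that carry an immunoreceptor tyrosine-based activation motif (ITAM) it raises NFATc1, the main transcription factor of the programme. NFATc1 in turn drives fusion genes such as *Dcstamp* and *Atp6v0d2* and resorption genes such as *Acp5* and *Ctsk*. DC-STAMP, a protein with several membrane-spanning stretches, is required for the fusion of osteoclasts and of foreign body giant cells, and it was first described in dendritic cells. Microglia belong to the same broad lineage and depend on CSF1 receptor signalling.

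*Dcstamp* (ENSMUSG00000022303.9) lies at chr15:39745930-39760938 on the plus strand in GRCm38, with 5 exon blocks. The opening of its coding sequence is shown because the report turns on this gene. The 150 bases lie at chr15:39754197-39754346 on the plus strand of GRCm38, in exon 2 of 4, and the start codon is in capitals.
*Dcstamp*: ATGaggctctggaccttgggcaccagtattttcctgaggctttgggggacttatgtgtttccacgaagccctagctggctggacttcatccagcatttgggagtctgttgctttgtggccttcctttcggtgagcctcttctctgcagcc

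RefSeq promoter windows of 300 bases (GRCm38.p6, 250 before and 50 after the start) matched 4 of the 9 genes, *Tnfrsf11a*, *Ctsk*, *Oscar* and *Acp5*. Windows of 2 of them are shown because they lie far apart in CG content, and these genes were also far apart in level. *Tnfrsf11a* was counted 4543 to 7810 times per library and *Ctsk* 0 to 9 times. The *Tnfrsf11a* window lies at chr1:105780473-105780772 on the plus strand and the *Ctsk* window at chr3:95498960-95499259 on the plus strand. Capitals mark the dinucleotide CG.
*Tnfrsf11a*: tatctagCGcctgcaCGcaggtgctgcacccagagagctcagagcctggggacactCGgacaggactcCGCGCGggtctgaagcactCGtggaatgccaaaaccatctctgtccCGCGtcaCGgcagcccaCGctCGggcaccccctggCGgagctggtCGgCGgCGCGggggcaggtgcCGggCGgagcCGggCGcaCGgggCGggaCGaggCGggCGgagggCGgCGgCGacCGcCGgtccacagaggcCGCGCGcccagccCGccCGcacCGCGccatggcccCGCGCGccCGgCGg
*Ctsk*: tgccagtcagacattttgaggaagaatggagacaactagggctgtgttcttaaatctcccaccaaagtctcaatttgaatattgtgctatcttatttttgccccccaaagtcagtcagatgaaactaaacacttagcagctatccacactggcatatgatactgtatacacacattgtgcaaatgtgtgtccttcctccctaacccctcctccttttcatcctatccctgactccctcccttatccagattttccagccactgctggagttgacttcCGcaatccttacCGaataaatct

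The *Tnfrsf11a* window held 43 CG, more than 97.4% of the 32851 windows in the table, whose median was 7. The *Ctsk* window held 2, and 14.1% of windows held fewer. The *Oscar* window (chr7:3616108-3616407, minus strand) also held 2. *Acp5*, counted 1 to 28 times per library, had 3 windows that held 4, 17 and 7, and its window with 17 held more than 68.6% of windows. Over all genes with 1 window, the minimum-count filter described below was passed by 379 of 483 genes (78.5%) with at least 43 CG and by 331 of 3869 genes (8.56%) with at most 2. The share over all 17471 genes with 1 window was 46.3%. CG content here is a description of sequence, and no methylation was measured.

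Total counts per library ranged from 32332185 to 38764643. The filter on low counts (edgeR's filterByExpr, minimum count 10) was passed by 14481 genes, and its minimum need not be met in every library. Levels are given as CPM, the count relative to a library size scaled by TMM. Of the 9 genes, 6 passed the filter, and *Ocstamp*, *Ctsk* and *Oscar* did not. A count of 0 allows up to 3 counts, or 0.0772 to 0.0930 CPM depending on the library, and covers counting error only. The microglial marker *P2ry12*, a purinergic receptor, was high in every library, with 5570 to 6881 CPM in GA. Library 388_4 stood apart for several genes. *Itgam*, which encodes the CD11b of the sort, had 88.7 CPM there against 191 to 233 CPM in the other PBS libraries and 197 to 299 CPM in GA, while *P2ry12* had 6692 CPM against 6603 to 7351 CPM in the other PBS libraries.

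*Dcstamp* was higher with GA, and it was readily counted in every library. In PBS it had 53.5 CPM in 388_1, 65.7 in 388_2, 79.1 in 388_3, 72.0 in 388_4 and 97.1 in 388_5. In GA it had 84.6 CPM in 394_1, 160.6 in 394_2, 182 in 400_1, 108 in 400_2 and 159.8 in 400_3. The groups overlapped through a single GA library, 394_1, which lay below 388_5, and 4 of 5 GA libraries lay above every PBS library. Reads per library numbered 2044 to 3427 in PBS and 2824 to 6308 in GA. The mean was 73.5 ± 16.2 CPM in PBS and 139 ± 41.0 CPM in GA (SD, n = 5), a ratio of 1.89. The log2 fold change was 0.92 (SE 0.20). It ran from 0.81 to 1.05 over the fits without 1 library and from 0.74 to 1.13 under the other alternatives. The GA libraries of prefix 394 had a mean of 123 CPM and those of prefix 400 a mean of 149.8 CPM. This difference within the GA group was within the spread (log2 fold change 0.29, SE 0.28, adjusted p = 0.9996, edgeR's quasi-likelihood test).

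Neutrophil and monocyte transcripts had higher mean levels in PBS, although none of these markers passed at adjusted p. Of the neutrophil markers 7 of 9 passed the filter and 7 of 7 were lower on average in GA, with summed levels of 36.2 to 426 CPM in PBS and 9.88 to 162 CPM in GA (*Ngp*, a granule protein, was the highest). For monocytes 5 of 5 were lower, with sums of 28.5 to 85.5 CPM in PBS and 31.0 to 44.1 CPM in GA (*Ccr2* the highest). For border-associated macrophages 6 of 7 were lower, with sums of 49.5 to 255 CPM in PBS and 49.1 to 195 CPM in GA (*Mrc1* the highest), but this direction rested on 388_4. Without it, in a comparison chosen after seeing the data, the mean sum for border-associated macrophages was 86.3 ± 46.7 CPM in PBS (SD, n = 4) against 105 ± 54.1 CPM in GA (SD, n = 5). The GA group in turn held 195 CPM in 400_2, against 49.1 to 95.8 CPM in the other GA libraries. Its mean was not computed without 400_2. Without 388_4 the mean sum for neutrophils was 241 ± 179 CPM in PBS against 66.4 ± 64.5 CPM in GA. For monocytes it was 48.1 ± 19.2 CPM against 36.5 ± 4.80 CPM. Both gaps were smaller than the SD of the PBS libraries. No marker of these lists was at 0 in every library. *Dcstamp* differed from the neutrophil and monocyte sums in direction, and the part of these cells in its difference was not tested. In bulk RNA, more cells of a type and more RNA per cell cannot be told apart.

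*Ocstamp* (ENSMUSG00000027670.4, chr2:165393760-165400405, minus strand) encodes a second membrane protein of osteoclast fusion. It was counted 5, 5, 0, 0 and 0 times in PBS libraries 388_1 to 388_5. In GA it was counted 6 times in 394_1, 0 in 394_2, 13 in 400_1, 11 in 400_2 and 0 in 400_3. The groups overlapped, with 5 of the 10 libraries at 0, and the reads summed to 10 in PBS and 30 in GA. The difference of mean log2 (CPM + 0.1) was 0.63 (exact permutation test, two-sided, p = 0.286, n = 5 per group), and 0.14 with a pseudocount of 1 CPM. The smallest p this design allows is 0.00794.

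*Atp6v0d2* (ENSMUSG00000028238.6, chr4:19876841-19922605, minus strand) encodes a d2 subunit of the proton pump V-ATPase that also takes part in fusion. It was counted 0, 18, 0, 0 and 21 times in PBS and 16, 0, 29, 12 and 13 times in GA, in the library order used above. It was either at 0 (4 libraries) or at 12 counts and more, and the groups overlapped. The mean was 0.227 ± 0.311 CPM in PBS and 0.393 ± 0.304 CPM in GA (SD, n = 5). Its log2 fold change of 0.79 had an SE of 1.08 and a 95% interval of -1.52 to 3.09 (adjusted p = 0.952, edgeR's quasi-likelihood test).

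*Tnfrsf11a* (ENSMUSG00000026321.7, chr1:105780718-105847981, plus strand), which encodes RANK, was steadily expressed. It had 181.6, 174.0, 182.9, 140.8 and 221.3 CPM in PBS and 177.2, 205.7, 181.5, 182.9 and 182.6 CPM in GA. Both the lowest and the highest library were PBS libraries, 388_4 and 388_5, and all GA libraries lay between them. The mean was 180 ± 28.7 CPM in PBS and 186 ± 11.2 CPM in GA (SD, n = 5). The log2 fold change was 0.05 (SE 0.10, interval -0.16 to 0.25, adjusted p = 0.972, edgeR's quasi-likelihood test), and without 388_4 it was -0.03.

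*Itgb3* (ENSMUSG00000020689.4, chr11:104608000-104670476, plus strand) encodes the beta3 integrin chain that anchors osteoclasts to bone. It had 135.1, 103.5, 131.1, 74.6 and 134.3 CPM in PBS and 123.9, 104.8, 145.8, 145.7 and 133.7 CPM in GA. Library 388_4 was low, as it was for *Itgam*, 388_2 lay just below the range of the GA group, and the remaining PBS libraries lay within it. The mean was 116 ± 26.5 CPM in PBS and 131 ± 17.2 CPM in GA (SD, n = 5). The log2 fold change was 0.18 (SE 0.15, interval -0.14 to 0.49, adjusted p = 0.921, edgeR's quasi-likelihood test) and came to 0.05 (SE 0.11, adjusted p = 0.998) without 388_4. Between the GA libraries, prefix 400 was higher than 394 by a log2 fold change of 0.31 (SE 0.20, adjusted p = 0.9996, same test). Against PBS, the log2 fold change was -0.01 with prefix 394 alone and 0.30 with prefix 400 alone.

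*Oscar* (ENSMUSG00000054594.13, chr7:3609813-3616157, minus strand) encodes a collagen receptor that signals through an ITAM adaptor in osteoclasts. It was at 0 in 9 libraries and had 3 reads in GA library 400_1, or 0.0867 CPM. No difference between the groups was detectable at this depth, since these reads lie at the limit that a count of 0 allows.

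*Nfatc1* (ENSMUSG00000033016.16), the transcription factor that RANK signalling raises in osteoclasts, varied least over the 10 libraries, relative to its mean, of the 6 genes that passed the filter. It had 300.3, 283.8, 280.4, 296.1 and 315.2 CPM in PBS and 305.4, 326.7, 263.1, 294.2 and 281.7 CPM in GA. The GA group held both the lowest and the highest library, and the means were 295 ± 13.9 and 294 ± 24.0 CPM (SD, n = 5). The log2 fold change was -0.00 (SE 0.07, interval -0.15 to 0.14, adjusted p = 0.997, edgeR's quasi-likelihood test), and its sign varied over the alternatives. Within GA, the libraries of prefix 400 were lower than those of 394 by a log2 fold change of -0.18 (SE 0.09, adjusted p = 0.939, same test).

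*Acp5* (ENSMUSG00000001348.15, chr9:22126727-22135711, minus strand) encodes tartrate-resistant acid phosphatase, the classical histochemical marker of osteoclasts. It was counted 4, 10, 28, 1 and 15 times in PBS and 9, 3, 13, 19 and 21 times in GA. The groups overlapped over most of their range, with sums of 58 and 65 reads and means of 0.343 ± 0.326 and 0.354 ± 0.184 CPM (SD, n = 5). The log2 fold change was 0.05 (SE 0.69, interval -1.42 to 1.53, adjusted p = 0.996, edgeR's quasi-likelihood test). *Acp5* shares 137 exon bases with *6530413G14Rik* on the opposite strand, and since the strand setting of the counting is not given in the sources used here, reads in that shared stretch cannot be assigned to one of the pair with certainty.

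*Ctsk* (ENSMUSG00000028111.4, chr3:95499256-95509362, plus strand) encodes cathepsin K, the collagen-degrading protease of osteoclasts. It was counted 2, 2, 1, 1 and 1 times in PBS and 0, 2, 5, 5 and 9 times in GA. The 3 highest libraries were those of prefix 400, and 394_1 was the only library at 0, so the groups overlapped. Reads summed to 7 in PBS and 21 in GA. The difference of mean log2 (CPM + 0.1) was 0.49 (exact permutation test, two-sided, p = 0.143, n = 5 per group), and 0.09 with a pseudocount of 1 CPM.

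**Figure D1:**
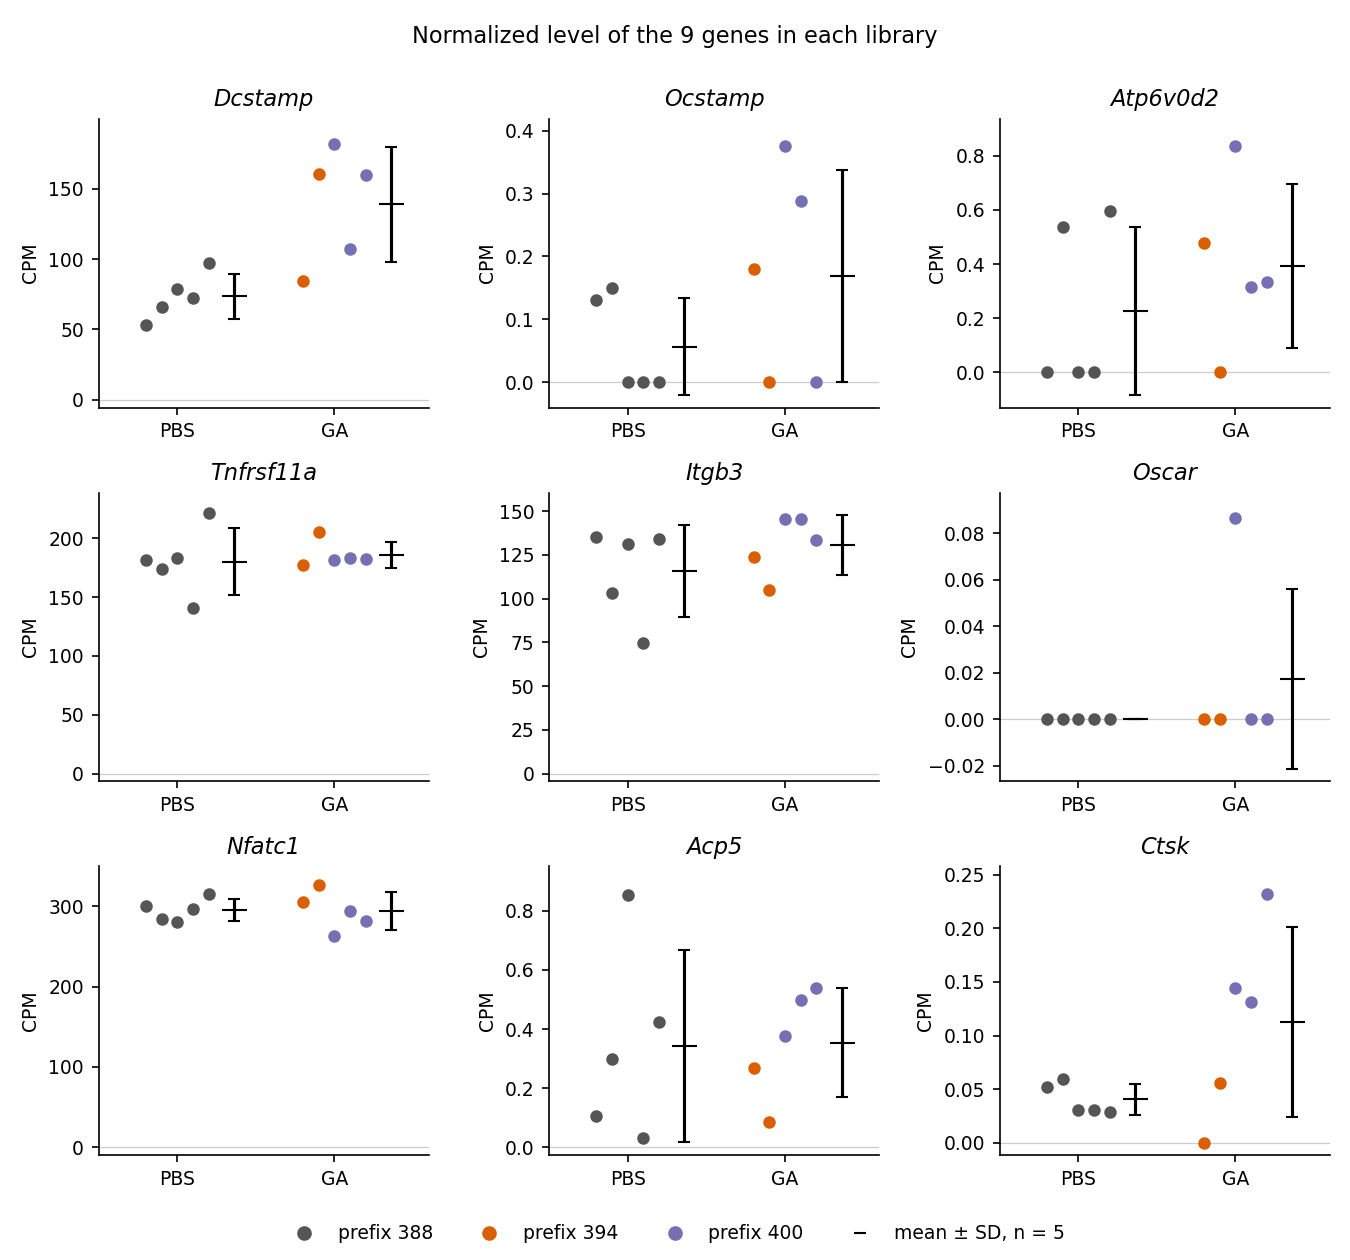
Normalized level (CPM, linear axes that include 0) of the 9 genes in the 5 PBS and 5 GA libraries, coloured by title prefix, with the mean and SD of each group beside the points. *Dcstamp* is higher in GA with 394_1 overlapping PBS, the groups overlap for *Tnfrsf11a*, *Itgb3* and *Nfatc1*, and *Ocstamp*, *Atp6v0d2*, *Oscar*, *Acp5* and *Ctsk* stay under 1 CPM.

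No call was made between GA and PBS among the genes beside *Dcstamp*. Of the 5 tested with edgeR's quasi-likelihood test, 0 had an adjusted p under 0.05 and 0 had an unadjusted p under 0.05, the smallest being 0.246 for *Itgb3*. Of all 14481 genes tested, 0 (0.0%) passed at adjusted p and 833 (5.75%) at unadjusted p, so the count among these genes does not stand out from that background. DESeq2 with its defaults called 2 genes over the table and none of these 5. Every GA library lay above every PBS library for 63 genes (0.435%) and below for 66 (0.456%), and for 0 of the 9 genes in either direction. Between the GA libraries of prefix 400 and 394, 2 genes (0.0138%) passed at adjusted p and none was among the 9.

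The 9 genes fell into a well-expressed and a barely counted group. Levels between genes are compared here as CPM per kilobase of exon, over all 10 libraries. *Dcstamp* had 39.9 ± 17.0, *Nfatc1* 39.5 ± 2.48, *Tnfrsf11a* 30.6 ± 3.47 and *Itgb3* 20.9 ± 3.81 CPM per kilobase (SD, n = 10). These lay above 92.9%, 92.8%, 90.0% and 84.8% of the genes tested. *Acp5*, at 0.172 ± 0.123 CPM per kilobase, was below *Itgb3* in 10 of 10 libraries with no overlap of their ranges, and only 5.76% of the genes tested lay lower. *Atp6v0d2* had 0.114 ± 0.112, *Ctsk* 0.0506 ± 0.0469, *Ocstamp* 0.0307 ± 0.0375 and *Oscar* 0.00469 ± 0.0148 CPM per kilobase (SD, n = 10).

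Neighbours in this order were often not separable. *Dcstamp* was above *Nfatc1* in 4 of 10 libraries, and by the longest transcript instead of all exons the pair changed places (53.2 for *Dcstamp* and 61.4 for *Nfatc1*). *Nfatc1* was above *Tnfrsf11a*, and *Tnfrsf11a* above *Itgb3*, in 10 of 10 libraries, although the ranges overlapped. *Acp5* was above *Atp6v0d2* in 6 libraries, *Atp6v0d2* above *Ctsk* in 5, *Ctsk* above *Ocstamp* in 6 and *Ocstamp* above *Oscar* in 5. By treatment, *Dcstamp* had 27.6 ± 6.09 CPM per kilobase in PBS and 52.2 ± 15.4 in GA (SD, n = 5), the former below and the latter above the mean of *Nfatc1*.

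**Figure D2:**
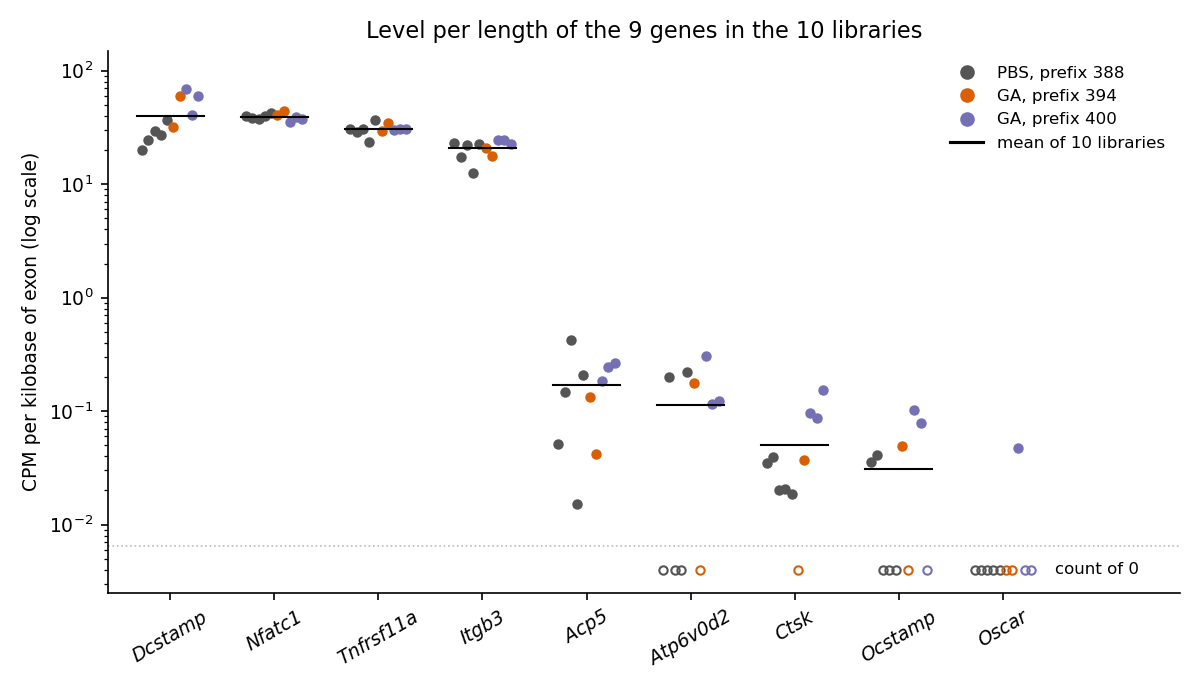
Level per length of the 9 genes (CPM per kilobase of exon, log axis) in the 10 libraries, ordered by mean. Filled points are libraries with reads, open points under the dotted line are libraries with a count of 0, and black lines are means over 10 libraries, not drawn for *Oscar* at 0.00469. *Dcstamp*, *Nfatc1*, *Tnfrsf11a* and *Itgb3* lie between 12.6 and 68.4, and the other genes reach at most 0.421.

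Other genes of the same pathways were placed on the same scale. *Atp6v0d1*, the broadly expressed counterpart of *Atp6v0d2* in the V-ATPase, had 46.0 ± 4.09 CPM per kilobase (SD, n = 10), 403-fold the mean of *Atp6v0d2* and at least 148-fold its level in every library where *Atp6v0d2* had reads. *Tcirg1*, the a3 subunit of the pump, had 106 CPM per kilobase. Of the integrin chains, *Itgav*, the alpha partner of beta3, had 22.6 ± 1.43 CPM per kilobase, near *Itgb3*, while *Itgb5*, another beta chain that pairs with it, had 1090.4. The ITAM adaptors *Tyrobp* and *Fcer1g* had 1537 and 918 CPM per kilobase, *Trem2* 332 and *Csf1r* 2899. *Tnfrsf11a* exceeded *Ctsk* 604-fold.

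The genes of the surrounding pathway were examined as 8 lists. They held 123 genes, each counted once, of which 107 passed the filter, 48 were higher and 59 lower in GA, and 0 passed at adjusted p. At unadjusted p, 2 higher and 3 lower genes passed, close to the background of 374 higher and 459 lower genes (5.75%) among the 14481. The median log2 fold change was -0.02, against 0.00 over all 14481 genes, of which 7250 were higher and 7231 lower. Of the 107 genes, 1 had groups that did not overlap, which is also near the background of 0.435% above and 0.456% below, and the lists do not stand out from all genes in these counts. All p-values in the following lists are from edgeR's quasi-likelihood test.

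RANK ligand itself, *Tnfsf11*, was at 0 in all 10 libraries. In the list of RANK ligand, decoy receptor and signalling genes 26 of 28 passed the filter, 12 higher and 14 lower (median -0.01). *Nfkb1*, the p105 and p50 subunit of NF-kappaB, had 178, 173, 166, 184 and 179.6 CPM in PBS and 159, 157, 159, 157 and 158 CPM in GA. The groups did not overlap, GA being the lower, and the GA libraries were close to one another (158 ± 0.646 CPM, against 176 ± 6.69 CPM in PBS). Its log2 fold change was -0.16 (SE 0.05, unadjusted p = 0.0110, adjusted p = 0.847). *Nfatc2*, a relative of *Nfatc1*, had 95.4 ± 9.26 CPM in PBS and 83.8 ± 12.3 in GA. The kinase gene *Mapk14* had 321 and 320.1 CPM, and *Jun*, a subunit of AP-1, had 231 ± 48.6 and 257 ± 149 CPM.

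Among ITAM adaptors and kinases 12 of 12 passed the filter, 4 higher and 8 lower (median -0.02). *Trem2* had 1623 ± 124 CPM in PBS and 1661 ± 166 in GA, and *Tyrobp*, its adaptor DAP12, had 991 ± 104 and 1059 ± 44.2. *Blnk*, a scaffold between Syk-type kinases and phospholipase C gamma, had 439.6 ± 49.6 and 389 ± 16.1 CPM (log2 fold change -0.18, SE 0.07, unadjusted p = 0.0316, adjusted p = 0.854).

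In the list of the CSF1 receptor and lineage factors 7 of 8 passed, 3 higher and 4 lower (median -0.01), and *Il34*, the other ligand of the receptor, was at 0 in all 10 libraries. *Csf1*, the ligand that osteoclast precursors need to survive, had 70.2, 106, 122, 89.7 and 124 CPM in PBS and 141, 140.1, 148, 160.5 and 123 CPM in GA. In *Csf1*, 4 of 5 GA libraries lay above every PBS library, the exception being 400_3. The share of all genes with such a pattern was not counted. Its log2 fold change was 0.47 (SE 0.13, unadjusted p = 0.00306, adjusted p = 0.847). *Mitf*, a transcription factor of osteoclasts and pigment cells, had 19.6 ± 2.81 CPM in PBS and 15.8 ± 1.67 in GA (-0.31, SE 0.12, adjusted p = 0.847). *Csf1r* had 16777 ± 1190 and 16703 ± 823 CPM, and *Spi1*, which encodes PU.1, had 387 and 395 CPM.

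Repressors of osteoclast formation and their antagonist passed in 10 of 10 cases, 6 higher and 4 lower (median 0.01). *Irf8*, which holds down *Nfatc1* in precursors, had 969 CPM in PBS and 952 in GA. *Tnfaip3*, an inhibitor of NF-kappaB, had 127 ± 13.6 and 138 ± 8.38 CPM, and *Id2* had 67.6 ± 24.8 and 56.0 ± 2.30 CPM.

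Other genes of cell fusion and podosomes passed in 17 of 21 cases, 7 higher and 10 lower (median -0.02). *Sirpa*, the receptor of CD47, had 4715 ± 328 CPM in PBS and 4571 ± 240 in GA, and the tetraspanin *Cd81* had 3085 and 2990 CPM. *Adam9*, a membrane protease linked to macrophage fusion, had 96.4 ± 10.9 and 109.5 ± 1.61 CPM (log2 fold change 0.18, SE 0.08, unadjusted p = 0.0310, adjusted p = 0.854). *Cd200* was near the filter at 0.406 ± 0.212 and 0.215 ± 0.144 CPM.

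Partners of beta3 integrin passed in 9 of 10 cases, 5 higher and 4 lower (median 0.01). *Itgb5* had 3702 ± 406 CPM in PBS and 4047 ± 234 in GA (log2 fold change 0.13, unadjusted p = 0.0989), *Fermt3*, the integrin activator kindlin-3, had 750.2 and 735 CPM, and *Ptk2b*, the kinase PYK2, had 173 and 184 CPM. Of the acid and matrix resorption genes 8 of 11 passed, 4 higher and 4 lower (median 0.00). The cathepsin inhibitor *Cst3* had 27281 ± 3404 and 25186 ± 2033 CPM. *Plekhm1*, a factor of lysosome fusion, had 34.8 and 39.8 CPM, and the matrix metalloproteinase *Mmp9* had 12.9 ± 7.16 and 7.71 ± 4.17 CPM (log2 fold change -0.74, SE 0.42, unadjusted p = 0.103). Carbonic anhydrase *Car2* was counted 0 to 26 times and the calcitonin receptor *Calcr* 0 to 1 times per library, both under the filter.

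V-ATPase subunits passed in 19 of 24 cases, 7 higher and 12 lower (median -0.05). *Atp6ap1*, an accessory subunit, had 737 CPM in PBS and 720.2 in GA, *Tcirg1* had 497 ± 74.1 and 479.6 ± 16.8 CPM, *Atp6v0e* had 127 ± 18.9 and 113 ± 6.15 CPM, and *Atp6v1e1* had 106 and 96.1 CPM. The subunit *Atp6v1b1*, which is typical of acid-secreting epithelia, was at 0 in all 10 libraries, as were *Atp6v1e2* and *Atp6v1g3*.

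**Figure D3:**
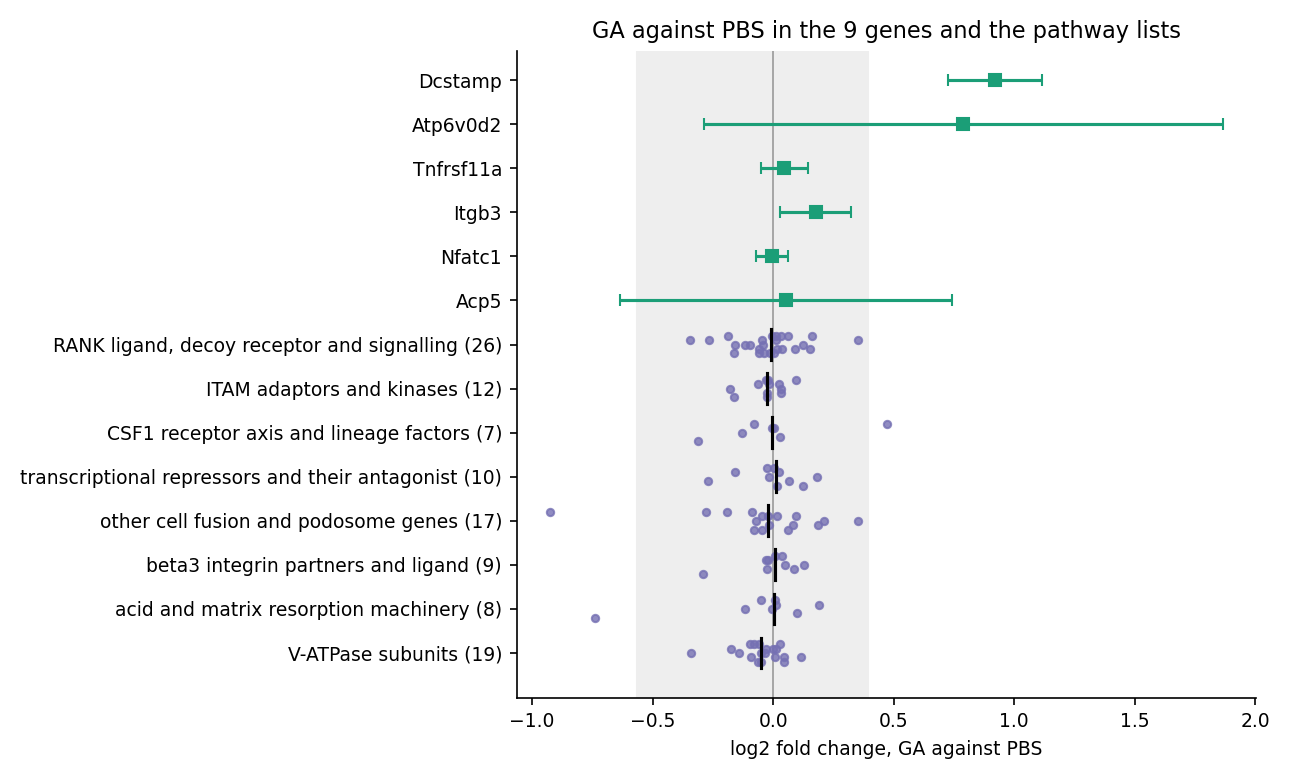
Log2 fold change of GA against PBS for the 6 of the 9 genes that passed the filter (squares with SE) and for each pathway list (points are genes, black ticks medians, the number of genes in brackets). The grey band holds the values between the 5th and 95th percentile of all genes tested, -0.56 to 0.39, and *Dcstamp* at 0.92 was chosen for its value. The medians of the 8 lists lie between -0.05 and 0.01.

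*Dcstamp* also varied between libraries of one treatment, with a coefficient of variation of 22.1% in PBS and 29.5% in GA. Its covariation with the other genes was described after the mean of each group was subtracted from log2 (CPM + 0.1), over 10 libraries that share 2 treatments, their preparation and a scaling. Pearson's r with *Dcstamp* was 0.36 for *Tnfrsf11a* (rho 0.41), 0.21 for *Acp5* (rho 0.30), 0.12 for *Atp6v0d2* (rho 0.18), 0.04 for *Itgb3* (rho 0.08) and -0.18 for *Nfatc1* (rho -0.19). Without 394_2 and 400_1, r was 0.37, 0.41, 0.19, 0.08 and -0.17 in the same order. These values pool groups of 5 libraries whose own r differed in sign for some genes. In PBS and GA, r was 0.32 and -0.38 for *Nfatc1*, 0.44 and -0.14 for *Atp6v0d2*, 0.52 and -0.09 for *Acp5*, 0.09 and -0.01 for *Itgb3*, and 0.45 and 0.44 for *Tnfrsf11a*. By exact permutation within groups, the p of r ran from 0.258 (*Tnfrsf11a*) to 0.906 over these 5 relations, with an adjusted p of 0.906 for each, and the p of rho from 0.248 to 0.829, with an adjusted p of 0.812 or more. Over the 9818 genes with a mean of at least 5 CPM, r had a median of 0.01 and 5th and 95th percentiles of -0.54 and 0.54, and 15.1% of genes had a higher r than *Tnfrsf11a*. The r of *Dcstamp* with the summed markers of other cell types did not exceed 0.36 (oligodendrocytes), and it was 0.27 for neutrophils, 0.19 for monocytes and 0.06 for border-associated macrophages.

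The 5 genes whose pattern over the 10 libraries was most like that of *Dcstamp* by this measure were *Prelid1* (r 0.93, rho 0.83), *Ldlrad4* (r 0.92, rho 0.93), *Pcyt1a* (r 0.92, rho 0.92), *Usp28* (r 0.88, rho 0.79) and *Lxn* (r 0.87, rho 0.79). They are the top of 9818 genes, and high values are found at the top of so many. Their log2 fold changes between the groups ran from -0.17 (*Pcyt1a*, SE 0.10, adjusted p = 0.895, edgeR's quasi-likelihood test) to 0.05 (*Ldlrad4*, SE 0.06). *Prelid1* had 57.3 ± 4.12 CPM in PBS and 56.2 ± 3.85 in GA, *Ldlrad4* had 72.6 ± 3.28 and 75.1 ± 3.09 CPM, and *Pcyt1a* had 45.3 ± 5.62 and 40.2 ± 3.38 CPM (SD, n = 5). Their spread between libraries was also narrower than that of *Dcstamp*. None of the 5 belongs to a list examined here. Some listed genes also lay above the 95th percentile of 0.54. The highest were the microglial marker *Olfml3* (r 0.76) and, in the pathway lists, *Src* (r 0.72). Whether listed genes are more frequent there than other genes was not tested.

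**Figure D4:**
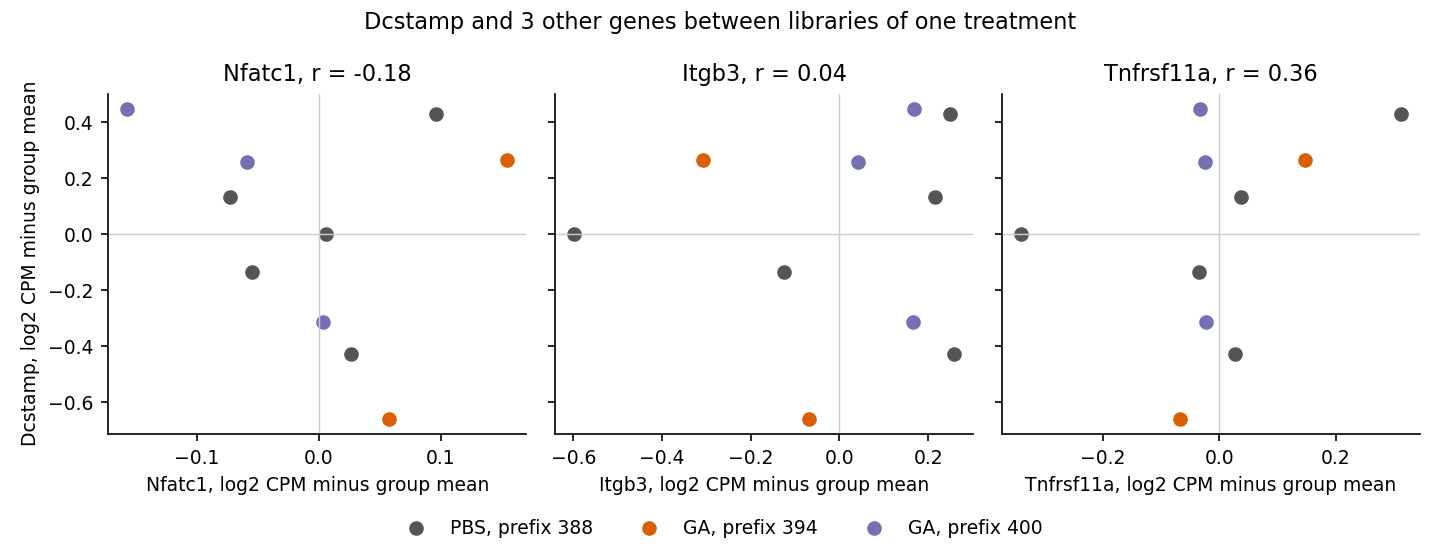
Each panel plots log2 (CPM + 0.1) of *Dcstamp* against that of *Nfatc1*, *Itgb3* or *Tnfrsf11a* in the 10 libraries, after subtraction of each treatment's mean. The points scatter widely, with r of -0.18, 0.04 and 0.36, and the lone low point on the left of the *Itgb3* and *Tnfrsf11a* panels is 388_4.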

How the data were processed

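RNA of sorted hippocampal microglia was amplified before library construction and sequenced as single-end reads. The authors deposited whole-number counts of reads per gene without normalization. The submitters' processing notes name bcl2fastq 2.19.0, fastp 0.20.0, STAR 2.7.0f, Subread 1.6.4, featureCounts, DESeq2 and GRCm38.p6, and the annotation release and strand setting are not given in the sources used here. Since no molecular identifiers were used, amplified copies were counted as separate reads. Each column was matched to its library by title, and 0 columns were left without a sample.

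Counts were filtered with filterByExpr (minimum count 10), scaled by TMM and tested with edgeR 4.0.16 (quasi-likelihood F-test, GA against PBS, no covariate) in R 4.3.3, with Benjamini-Hochberg adjustment over 14481 genes. For genes under the filter the exact permutation test (two-sided) was used, with a pseudocount of 0.1 CPM (1 CPM as an alternative). Lengths and positions came from GENCODE M21, which gave a length for 99.1% of the genes tested, and promoter windows from RefSeq. Alternatives used DESeq2 1.42.0, limma 3.58.1, other filters, each library left out, either GA prefix alone and the title number as a block. The fits were tested on simulated data.

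The genes and lists were chosen with earlier results of these data known. Named in each list were the 2 highest by mean CPM and the 2 with the smallest p, and, for the genes most like *Dcstamp*, the 5 with the highest r. Some items that this rule selects are not reported here.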

Additional observations from a re-analysis of the deposited data

Results flagged for a closer look

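For the 9 genes, each group's highest and lowest library was compared with its neighbours by Dixon's criterion (0.71 for 5 samples) in 17 combinations of gene and group, of which chance singles out about 1 in 20. In the GA group *Tnfrsf11a* had 206 CPM in library 394_2, and the gap to the next library made up 0.800 of the range of the group. *Oscar* had 0.0867 CPM in library 400_1, the only library with reads of the gene.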

How the results depend on the processing

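Of 213 values under alternative settings, 190 kept their direction and side of the threshold or moved by less than the spread, 15 changed sign and 8 moved further. The number of genes with adjusted p under 0.05 in GA against PBS was 0 in the main fit, 2 with DESeq2, and 0 to 1 when each library was left out, the 1 being without 394_1. Between prefixes it was 2, and 64 with DESeq2. At unadjusted p it was 833, and 1901 without a filter, 503 with prefix 394 alone, and 595 to 1137 with each library left out. Between prefixes it rose to 1528 when the GA libraries were fitted alone. Signs changed for genes whose 95% intervals included 0. *Nfatc1* had a log2 fold change of 0.00442 without a filter, 0.0191 with a replicate block, 0.10 with prefix 394 alone and -0.0444 to 0.0384 with each library left out. *Acp5* had -0.95 with prefix 394 alone and -0.24 to 0.72 with each library left out, *Itgb3* -0.0116 with prefix 394 alone, and *Tnfrsf11a* -0.0304 to 0.14 with each library left out. *Atp6v0d2* kept its sign, with 0.32 to 1.56 with each library left out and 0.0807 to 1.86 under the other alternatives. By the longest transcript *Nfatc1* had 61.4 and *Tnfrsf11a* 36.4 CPM per kilobase. The cause of these changes was not tested.

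Same-numbered libraries did not deviate together (r of -0.12 to 0.05), which gives no sign that the title numbers pair the libraries. So few pairs cannot settle whether same-numbered libraries share a preparation. With the replicate block, 0 genes passed at adjusted p and 983 at unadjusted p. With under 100 reads per group, *Ocstamp*, *Oscar*, *Ctsk*, *Acp5* and *Atp6v0d2* show differences only beyond wide errors.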
